A study of Mus musculus with 2 samples.

Results

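Cycling nerve macrophages were defined as cells with at least 3 UMIs (unique molecular identifiers, each standing for 1 captured RNA molecule) summed over *Mki67*, *Top2a*, *Birc5*, *Ube2c*, *Nusap1*, *Pclaf*, *Prc1* and *Knl1*, among barcodes with at least 500 UMIs and 200 genes. They numbered 65 of 5098 cells, or 1.28% (95% exact binomial interval 0.985 to 1.62%). The cells came from the sciatic nerves (SNs) of 19 male Flt3-Cre LSL-YFP fl/fl mice aged 10 to 12 weeks, which were pooled and sorted as CD64+ CD45int macrophages into YFP− and YFP+ fractions. Flt3-Cre is active in hematopoietic progenitors, so that YFP marks the progeny of such cells, and the study reads YFP− macrophages as embryonic-derived and YFP+ macrophages as derived from hematopoietic stem cells (HSCs). Each fraction was loaded as 1 10x Chromium v2 library, and both fractions carried the Cre and the reporter. No mouse can be traced within a library, so cells were not replicates and no test between libraries or between cells was made. All intervals below are 95% intervals that cover counting error only.

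A cell that divides copies its DNA in S phase and separates the copies in mitosis, and each step has its own set of transcripts. E2F factors drive genes for nucleotide supply and replication, while genes for chromosome condensation, the kinetochore and the spindle peak later, in G2 and M, and are then switched off and their products degraded. Many tissue macrophages can renew themselves by division in place, a process that depends on signalling through CSF1R, while others are replaced by CCR2+ monocytes from the blood.

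Of the 1045 YFP− cells, 12 were cycling, or 1.15% (0.595 to 1.997%), and of the 4053 YFP+ cells 53 were cycling, or 1.31% (0.981 to 1.71%). The intervals of both shares overlapped. Cycling cells held far more RNA than the other cells of their library. Their median was 3810.5 UMIs and 1752.5 genes in YFP− and 3101 UMIs and 1475 genes in YFP+, against 2225 UMIs and 1049 genes, and 1474.5 UMIs and 768 genes, in other cells. A deeper cell also reaches 3 UMIs more easily, and how much of this gap comes from the rule was not tested. Cells with 1 or 2 UMIs of the 8 genes, counted among other cells, had medians of 3295 UMIs in YFP− and 2124 in YFP+. When each cell was thinned to 500 UMIs, cycling cells still held a median of 359.5 genes in YFP− and 360 in YFP+, against 337 and 329 in other cells, with overlapping ranges (286 to 398 and 308 to 390, against 232 to 393 and 231 to 407). After the same thinning, 1.82% of YFP− and 1.43% of YFP+ cells held at least 1 UMI of the 8 genes, so the order of the libraries was not the same under both measures.

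The sum over the 8 genes ran from 3 to 40 in YFP− with a median of 8.5, and from 3 to 45 in YFP+ with a median of 9. The YFP− cells fell into separate ranges, with 5 cells at 27 to 40 and 7 cells at 9 or less, and these 5 cells held 65.0% of all UMIs of the YFP− cycling cells. The corresponding 5 cells of YFP+ held 18.0%. Just inside the threshold stood 7 cells with 3 UMIs, and just outside stood 8 cells with 2 UMIs, while 110 cells had 1 UMI and 4915 had none. No barcode with over 100 UMIs that fell short of the cell threshold held 3 UMIs of the 8 genes. Doublets were kept, and cycling cells made up 4 of 11 cells above the 99th percentile of UMIs in YFP− and 9 of 41 such cells in YFP+. How many of these are doublets was not tested. The libraries shared 7 cell barcodes, none of which belonged to a cycling cell.

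**Figure D1:**
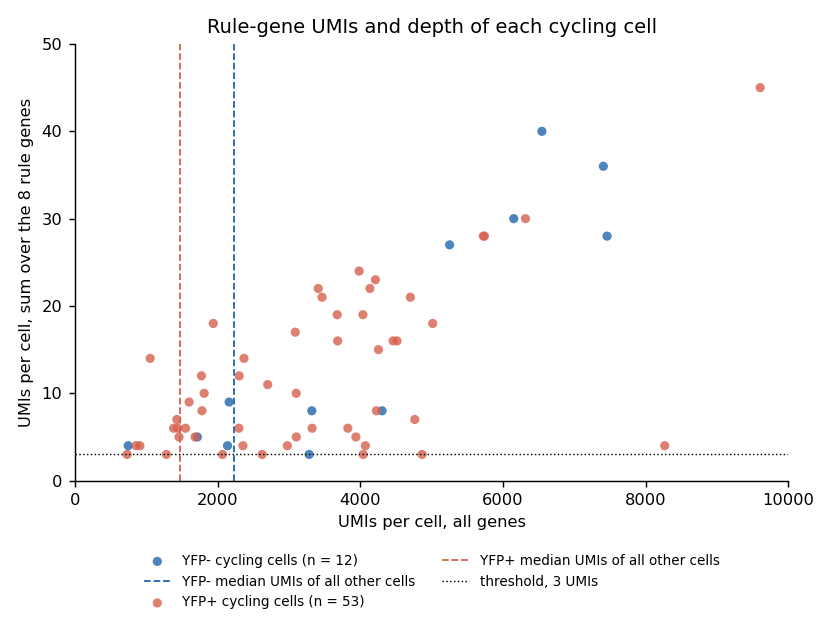
UMIs summed over the 8 rule genes against all UMIs, for each of the 12 YFP− (blue) and 53 YFP+ (red) cycling cells. Dashed lines mark the median UMIs of the other cells (2225 in YFP−, 1474.5 in YFP+) and the dotted line the threshold of 3. The 5 highest YFP− cells have sums of 27 to 40.

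Cycling cells were chosen by the summed UMIs of the 8 rule genes, and the levels of these genes are given as a description. A level is in CPM, the summed UMIs of a gene per 1000000 summed UMIs of the group of cells. *Mki67* (chr7:135689784-135716361, GRCm38), whose product coats mitotic chromosomes and is the standard mark of proliferating cells, stood at 416 CPM in YFP− cells and at 506 CPM in YFP+ cells, with UMIs in 8 of 12 and 33 of 53 of them. *Top2a* (chr11:98992943-99024189), which untangles replicated DNA, was at 971 and 915 CPM, with UMIs in 10 and 46 cells. *Pclaf* (chr9:65890237-65903266), a partner of the replication clamp, was at 614 and 667 CPM, and *Birc5* (chr11:117849251-117855743), a subunit of the chromosomal passenger complex, at 872 and 529 CPM. The other four were *Ube2c* (chr2:164769898-164778822), the ubiquitin-conjugating enzyme of the anaphase-promoting complex, at 456 and 247 CPM, *Nusap1* (chr2:119618298-119651244), a spindle protein, at 337 and 385 CPM, *Prc1* (chr7:80294450-80316259), which bundles the central spindle, at 178 and 207 CPM, and *Knl1* (chr2:119047119-119105501), a kinetochore scaffold, at 159 and 213 CPM. In other cells none of the 8 exceeded 3.80 CPM. The sum over the 8 genes was 4003 CPM (3470 to 4595) in YFP− and 3670 CPM (3391 to 3967) in YFP+ cycling cells. Of all rule-gene UMIs in cells, cycling cells held 84.2% in YFP− and 87.9% in YFP+. In barcodes of 10 to 100 UMIs, taken here as free RNA, the sum was 98.9 CPM in YFP− and 95.9 CPM in YFP+, above the 16.1 and 13.4 CPM of other cells.

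Genes that peak in G2 and M are known to share a promoter element with the letters TTTGAA, often with CCAAT boxes nearby, through which a repressor complex acts outside of the cycle. The stretches of 250 bases before the RefSeq start of 3 rule genes follow, since they show these letters present and absent. All are from GRCm38.p6 and run 5′ to 3′ on the strand of the gene. Capitals mark TTTGAA and the CCAAT box on either strand, so that matches on the other strand stand as their reverse complements. The *Mki67* stretch (chr7:135716380-135716629, minus strand) held TTTGAA at 116 and 98 bases before the start and 3 CCAAT matches, the *Top2a* stretch (chr11:99024190-99024439, minus strand) held it at 179 and, in reverse, at 23 bases before the start with 6 CCAAT matches, and the *Nusap1* stretch (chr2:119618048-119618297, plus strand) held neither.
Mki67: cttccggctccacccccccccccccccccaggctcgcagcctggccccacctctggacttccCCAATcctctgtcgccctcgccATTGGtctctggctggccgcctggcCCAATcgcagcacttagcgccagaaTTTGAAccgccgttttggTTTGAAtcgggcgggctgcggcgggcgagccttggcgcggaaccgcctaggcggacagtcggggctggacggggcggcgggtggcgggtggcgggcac
Top2a: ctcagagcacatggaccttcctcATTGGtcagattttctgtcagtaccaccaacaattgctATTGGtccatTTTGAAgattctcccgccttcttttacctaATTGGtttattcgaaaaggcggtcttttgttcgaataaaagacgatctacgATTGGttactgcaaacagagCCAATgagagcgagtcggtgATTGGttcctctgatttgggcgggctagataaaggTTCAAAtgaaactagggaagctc
Nusap1: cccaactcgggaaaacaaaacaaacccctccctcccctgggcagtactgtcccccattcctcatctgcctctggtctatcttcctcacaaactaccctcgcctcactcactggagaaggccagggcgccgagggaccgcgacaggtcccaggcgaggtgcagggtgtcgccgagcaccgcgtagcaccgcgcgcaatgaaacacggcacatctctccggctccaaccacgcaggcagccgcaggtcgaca

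All 8 rule genes matched the RefSeq promoter table, with 9 starts, of which 44.4% held TTTGAA and 66.7% held CCAAT on either strand, against 15.99% and 33.8% of all 32851 promoters of the same length. Both together were in 44.4% of the 9 and in 5.55% of all. Among the lists of cell cycle genes, the spindle and cytokinesis list had TTTGAA in 45.2% of 31 promoters, with 29 of 36 genes matched, and the DNA replication list in 12.2% of 49 promoters, with 41 of 55 genes matched. TTTGAA was in 38.9% of the condensin and cohesin promoters, 29.2% of those of histones and chromatin, 27.8% of those of mitotic kinases and cyclins, 21.9% of those of kinetochore and checkpoint genes and 10.0% of those of nucleotide synthesis. The E2F-type letters TTTCCCGC were in 0.895% of all promoters. They were in 11.1% of the condensin and cohesin promoters, 9.38% of the kinetochore and checkpoint, 8.16% of the replication, 5.0% of the nucleotide synthesis and 4.17% of the histone and chromatin promoters, and in 0 of the mitotic kinase, spindle and rule-gene promoters. These matches are descriptions of letters and not of bound sites.

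The label of macrophage was checked against defining genes of this and other cell types. *C1qa*, a complement gene typical of tissue macrophages, was at 5133 CPM (4527 to 5797) in YFP− and 4930.4 CPM (4606 to 5272) in YFP+ cycling cells. It had a UMI in 64 of the 65 cycling cells. Free RNA held *C1qa* at 6849 and 6249 CPM, so that a single UMI in a cell tells little. *Csf1r*, the receptor for the macrophage survival factor, was at 793 CPM (566 to 1079) in YFP− and 524 CPM (422 to 643) in YFP+ cycling cells, with a UMI in 10 of 12 and 41 of 53 of them. Other cells held it at 996 and 882 CPM, a log2 ratio of −0.33 (−0.82 to 0.12) and −0.75 (−1.07 to −0.45). The YFP+ cycling cell with 8266 UMIs held only 1 UMI each of *C1qa* and *Csf1r*. Cycling cells had no UMI of the marker lists of T cells, NK cells, mast cells, erythroid cells, fibroblasts or mural cells, for which a floor of 3 UMIs per library, used for counts of 0, comes to 59.5 and 17.3 CPM. Of the B cell list, *Cd79a* and *Ms4a1* had no UMI, and the level of the whole list was 218 and 391 CPM, against 377 and 379 CPM in other cells. *Ighm* gave all 11 of its UMIs in YFP− and 59 of 68 in YFP+, and *Cd79b* the remaining 9. Of the neutrophil list, *Mmp9* alone was seen, with 1 and 3 UMIs, and *S100a8* and *S100a9* had none. The progenitor and endothelial lists came to 2 and 4 UMIs, with *Cd34* and *Pecam1* as their leading genes. All of these UMIs were in 1 YFP+ cycling cell, which held 2975 UMIs. The lists were at 11.5 and 23.0 CPM in YFP+ cycling cells, against 1.37 and 9.58 CPM in other YFP+ cells. Whether this cell is a doublet or of another type was not tested. The dendritic cell list was at 39.6 and 69.0 CPM, below the 203 and 181 CPM of other cells, with 1 and 5 UMIs of *Cd209a* and 1 and 4 UMIs of *Siglech*. The Schwann cell list stood at 476 CPM in YFP− cells and at 288 CPM in YFP+ cells, mainly *Pmp22*, against 716 and 666 CPM in other cells and 3352 and 5345 CPM in the free RNA of barcodes with 10 to 100 UMIs, with *Sox10* at 0 in cycling cells.

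Beyond the rule genes, the question was which transcripts set cycling cells apart from all other nerve macrophages. The summed levels of genes for DNA copying, chromatin and mitosis were higher, and the summed levels of MHC class II genes and of perivascular macrophage genes were lower, although 1 of 6 and 3 of 11 tested genes of these lists passed the 2-fold rule. Of 2803 genes with a mean level of at least 50 CPM, 232 (8.28%) were at least 2-fold higher in the cycling cells of both libraries and 37 (1.32%) were at least 2-fold lower in both. Every count per list below is to be read beside these shares. Of the 232, 93 (40.1%) belonged to 8 lists of cell cycle genes, which held 239 genes, 108 of them above the level filter, and none of these 108 was lower. The median log2 ratio over all genes tested was 0.08 in YFP−, 0.13 in YFP+ and 0.12 over both libraries, and single ratios below are to be read against it. For 149 of the 232, other cells were under 50 CPM, so that the gene passed the filter through the cycling cells, and the counts per list below describe the listed genes that passed and nothing more. Weighting the other cells to the depth of the cycling cells gave 140 higher genes, 130 of them among the 232 and 74 of them in the cell cycle lists, and 33 lower genes, 21 of them among the 37. In this comparison at like depth, 59 of 119 named genes moved by over 1.5-fold in YFP−, 29 of them up and 30 down, and 19 in YFP+, 6 up and 13 down. Its YFP− values set 4 cycling cells of 6000 UMIs or more against only 3 other cells. Leaving out the 5 cycling cells of each library with the highest sums gave 131 higher genes, 114 of them among the 232, and 9 lower genes, 6 of them among the 37.

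**Figure D2:**
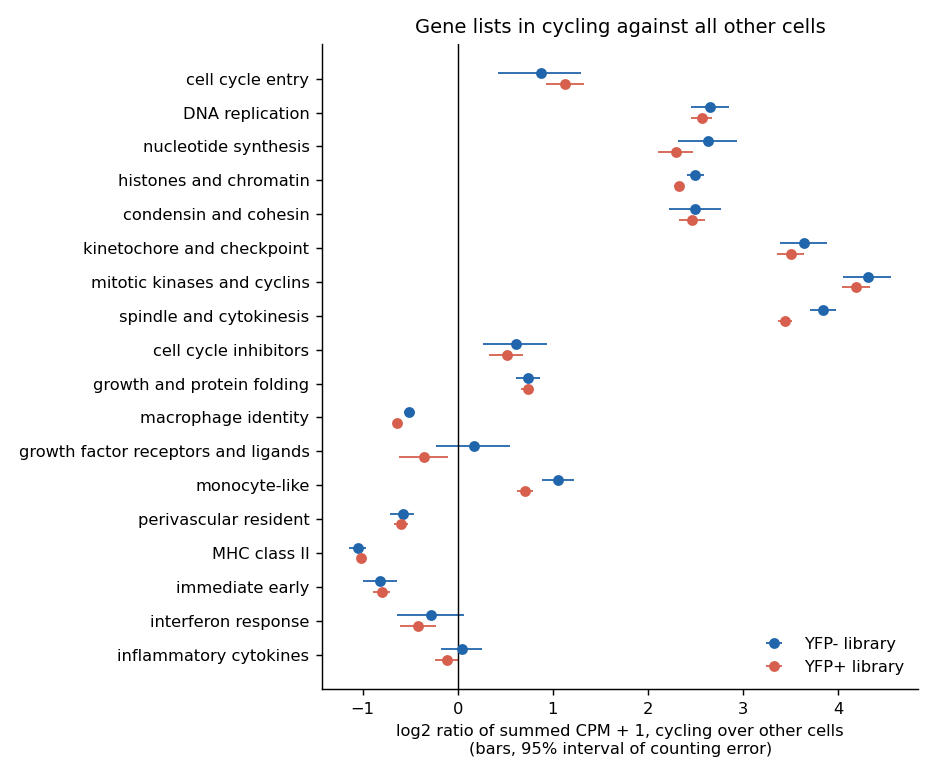
Log2 ratio of summed levels (CPM + 1) in cycling over other cells for 18 gene lists, in the YFP− (blue) and YFP+ (red) libraries, with 95% counting intervals. The mitotic kinase and cyclin list stands highest, at 4.31 and 4.19, and the MHC class II list lowest, at −1.05 and −1.02.

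Genes that carry a cell from G1 into S moved least among the cell cycle lists. The summed level of the 18 entry genes was 912 CPM (667 to 1216) in YFP− and 1271 CPM (1109 to 1451) in YFP+ cycling cells, against 496 and 581 CPM in other cells. The log2 ratio of the list was 0.88 and 1.13, against 0.24 and 1.001 at like depth and 0.82 and 1.08 among cells under 6000 UMIs. Of 6 genes tested 2 were higher, beside 8.28% of all genes. *Cdk2*, the kinase of S phase entry, was at 159 and 109 CPM against 22.8 and 19.2 CPM. *Cdk4*, a partner of D-type cyclins, was at 139 and 155 CPM against 60.8 and 58.0 CPM. In YFP− *Cdk4* rested on 7 UMIs in 3 cells, and the interval of its log2 ratio (−0.15 to 2.25) held 0. At like depth the log2 ratio of *Cdk2* was 1.25 and 2.68. *Ccnd1*, the cyclin most used by growth factor signals, was at 99.1 and 155 CPM in cycling cells and at 99.7 and 103 CPM in other cells, with a log2 ratio of −0.01 (−1.61 to 1.23) and 0.59 (−0.01 to 1.15). *Cdk6* and *Ccnd3* also had intervals across 0 in both libraries.

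The summed level of replication genes was higher in cycling cells. The 55 genes of this list summed to 4637 CPM (4062 to 5271) in YFP− and 4303 CPM (4000 to 4623) in YFP+ cycling cells, against 738 and 726 CPM in other cells, a log2 ratio of 2.65 and 2.57. At like depth the ratio was 1.60 and 2.26, and 2.48 and 2.22 among cells under 6000 UMIs. Of 19 genes tested 16 were higher and none was lower, but 17 of the 19 were under 50 CPM in other cells, and the other 36 genes of the list were not tested. *Slbp*, which binds histone mRNAs, was at 436 and 345 CPM against 72.2 and 77.7 CPM. *Pcna*, the sliding clamp, was at 198 and 288 CPM against 36.7 and 38.3 CPM. *Gmnn*, which blocks a second round of licensing, was at 396 and 184 CPM against 8.45 and 13.8 CPM, and *Lig1*, the replicative ligase, at 277 and 155 CPM against 30.4 and 30.0 CPM. At like depth the log2 ratio of *Gmnn* was 2.75 and 3.65 and that of *Lig1* 1.49 and 1.497. The clamp loader subunit *Rfc2* was not called, with a log2 ratio of 0.93 in YFP− and 1.65 in YFP+.

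Enzymes that supply nucleotides were also higher in sum. The 20 genes summed to 1922 CPM in YFP− and 1640 CPM in YFP+ cycling cells, against 309 and 334 CPM, and 8 of 9 tested were higher with none lower. The log2 ratio of the list at like depth was 1.64 and 1.996, and 2.76 and 1.95 among cells under 6000 UMIs. The thymidine kinase gene *Tk1* was at 258 and 201 CPM against 2.11 and 2.28 CPM. The ribonucleotide reductase subunit *Rrm2* was at 79.3 CPM from 4 UMIs in YFP− and at 190 CPM in YFP+, against 0.845 and 0.608 CPM. *Dut*, which clears dUTP, was at 258 and 155 CPM against 15.6 and 13.5 CPM, and its log2 ratio at like depth was 1.52 and 3.05. *Impdh2*, of guanine nucleotide synthesis, was at 159 and 144 CPM against 54.1 and 57.8 CPM, but at −0.06 and 0.71 on the log2 scale at like depth, where it was not called. *Dctpp1*, which degrades modified dCTP, was at 277 and 207 CPM against 86.2 and 98.6 CPM, a smaller ratio than those of *Tk1*, *Rrm2* and *Dut*. At like depth its log2 ratio was 2.695 in YFP−, above that of *Dut*, and 1.048 in YFP+, below it.

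Genes of histones and other chromatin proteins were also higher. The 30 genes of this list summed to 21244 CPM in YFP− and 19917 CPM in YFP+ cycling cells, or 89.3 and 65.3 UMIs per cell, against 3757 and 3979 CPM in other cells. Of 21 genes tested 18 were higher and none was lower. *Ptma*, a chromatin-associated acidic protein, was at 4281 and 4844 CPM against 1385 and 1462 CPM, *H2afz*, a histone variant, at 3369 and 2940 CPM against 449 and 460 CPM, and *Hmgb2*, a DNA-bending protein, at 2140 and 2295 CPM against 150 and 171 CPM. *Hmgb1* reached 1843 and 2042 CPM against 495 and 527 CPM, a log2 ratio of 1.90 and 1.95, below the 3.83 and 3.74 of *Hmgb2*. The canonical histone gene *Hist1h2ae* was at 872 and 817 CPM against 4.22 and 3.04 CPM. Histone genes resemble each other and several of these genes have many processed pseudogenes in the annotation, so their levels are less certain than those of single-copy genes.

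Genes for chromosome condensation and cohesion summed to 2576 CPM in YFP− and 2721 CPM in YFP+ cycling cells, against 455 and 492 CPM, and 11 of 15 tested were higher with none lower. The condensin subunits *Smc4* and *Smc2* were at 357 and 351 CPM and at 357 and 293 CPM, against 18.2 to 28.8 CPM in other cells. *Esco2*, the acetyltransferase that locks cohesin in S phase, was at 178 and 150 CPM, with 0 UMIs in the other YFP− cells and 0.152 CPM in the other YFP+ cells. Among cohesin subunits *Stag1* was higher, at 178 and 207 CPM against 69.7 and 83.5 CPM, with a log2 ratio of 0.69 and 1.26 at like depth, where it was not called. *Smc3*, *Rad21* and *Stag2* were called neither way. *Smc3* and *Rad21* had log2 ratios of 1.204 and 1.350 in YFP+, but only 3 UMIs each in YFP− cycling cells.

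All 11 tested kinetochore and checkpoint genes were higher, 10 of them under 50 CPM in other cells. The kinetochore gene *Pmf1* was not called at like depth, with a log2 ratio of 0.19 in YFP− and 2.27 in YFP+. The list of 33 summed to 3468 CPM (2973 to 4022) in YFP− and 2877 CPM (2630 to 3140) in YFP+ cycling cells, against 277 and 253 CPM. *Cenpf* was at 396 and 276 CPM against 4.65 and 2.43 CPM, *Cenpa*, the centromeric histone, at 377 and 219 CPM against 38.9 and 26.9 CPM, and *Spc24*, of the NDC80 complex, at 337 and 196 CPM against 6.34 and 5.02 CPM. The checkpoint protein *Bub3* had a smaller ratio, at 198 and 230 CPM against 67.2 and 70.9 CPM.

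Mitotic kinases, cyclins and their degradation factors gave the largest ratio of any list. The 27 genes summed to 3686 CPM (3175 to 4255) in YFP− and 3343 CPM (3076 to 3626) in YFP+ cycling cells, against 185 and 182 CPM, or 19.9-fold and 18.3-fold. All 13 genes tested were higher. *Cdk1*, the kinase that starts mitosis, was at 218 and 196 CPM against 2.96 and 3.35 CPM. Its small partners *Cks1b* and *Cks2* were at 436 and 368 CPM and at 277 and 299 CPM, against 8.03 to 14.8 CPM in other cells. *Cdca8*, of the chromosomal passenger complex, was at 159 and 247 CPM against 5.07 and 5.32 CPM. *Ube2s*, which extends ubiquitin chains for the anaphase-promoting complex, was at 396 and 414 CPM against 83.2 and 73.8 CPM, the smallest ratio of the 5 described here. As a list, the 12 YFP− cells all exceeded the median of other YFP− cells, which was 0, as did 52 of the 53 YFP+ cells. Any UMI of the list was enough to exceed a median of 0, so these counts tell little.

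Spindle and cytokinesis genes summed to 11554 CPM in YFP− and 10051 CPM in YFP+ cycling cells, against 806 and 925 CPM, and all 14 tested were higher. At like depth the log2 ratio of the list was 2.81 and 3.17, and among cells under 6000 UMIs 3.11 and 3.25. The tubulins and the tubulin regulator *Stmn1* were among them. *Tubb5* was at 2774 and 3383 CPM against 335 and 416 CPM, *Tuba1b* at 2259 and 1910 CPM against 212 and 230 CPM, and *Stmn1*, which frees tubulin dimers, at 3072 and 1996 CPM against 65.9 and 69.1 CPM. *Stmn1* had UMIs in all 12 YFP− and in 46 of 53 YFP+ cycling cells. *Tubb4b* and *Tuba1c* were at 184 to 238 CPM in cycling cells and 12.7 to 31.3 CPM in other cells.

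To describe where in the cycle these cells stood, UMIs of 75 S genes (replication and nucleotide synthesis) and of 109 G2/M genes (condensation, kinetochore, mitotic kinases and spindle, without tubulins and *Stmn1*) were summed in each cell, leaving the rule genes out. Of the 65 cycling cells, 48 had more G2/M than S UMIs, 16 had more S than G2/M UMIs and 1 had as many of each. The cells with more S UMIs were 24.6% (14.8 to 36.9%) of all, 4 of 12 in YFP− and 12 of 53 in YFP+. The median cell held 26.5 S and 34.5 G2/M UMIs in YFP− and 16 S and 26 G2/M UMIs in YFP+. By summed level, S genes were at 6560 CPM (5872 to 7306) and 5943 CPM (5586 to 6317), against 1010 and 1032 CPM in cells without a rule-gene UMI, and G2/M genes at 12544 and 11144 CPM, against 1001 and 1005 CPM. The 2 sets differ in size and level, so that more UMIs of one set is a relative position and not a phase. With tubulins and *Stmn1* counted in the G2/M set, the share with more S UMIs was 12.3%, and among the 57 cells that pass the rule without *Pclaf* it was 14.04%.

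**Figure D3:**
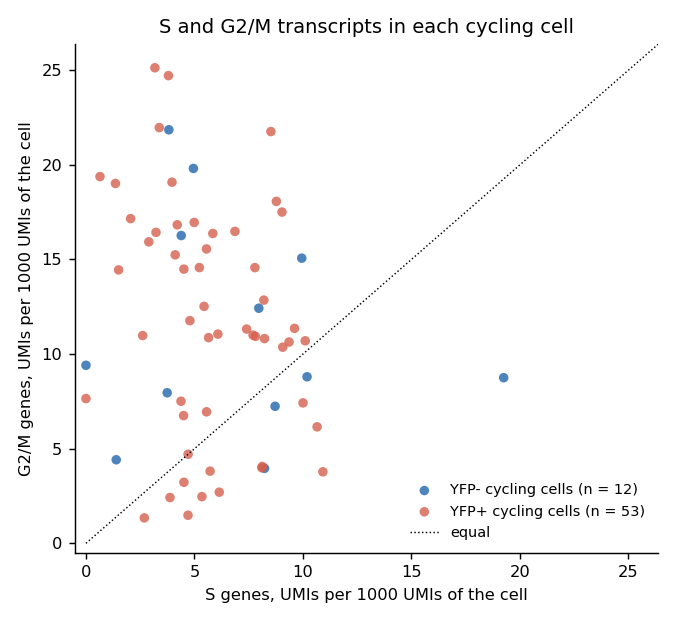
S-gene against G2/M-gene UMIs per 1000 UMIs of the cell in the 12 YFP− (blue) and 53 YFP+ (red) cycling cells. The dotted line marks equal amounts, with 48 cells above it, 16 below it and 1 on it.

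The rule genes are mainly G2/M genes, so that levels by rule sum are a description and no independent sign of phase. S genes were at 5826 CPM (4788 to 7022) in the 7 cells with 3 rule UMIs and at 6000 CPM (5592 to 6430) in the 31 cells with 10 or more, whereas G2/M genes went from 3814 CPM (2984 to 4803) to 14691 CPM (14048 to 15355). In YFP+, 9 of 16 cells with sums of 3 to 5 had more S UMIs, against 3 of 37 cells with sums of 6 or more. The 8 cells just under the threshold, with 2 rule UMIs, had S genes at 4407 CPM (3346 to 5697) and G2/M genes at 4939 CPM (3812 to 6295), above the 1026 and 1004 CPM of cells without rule UMIs. Some cells outside the rule carried many S transcripts. At least 10 S UMIs were found in 15 of 1033 other YFP− and 40 of 4000 other YFP+ cells. Among cycling cells they were found in 9 of the 12 and 36 of the 53. At least 10 G2/M UMIs were found in 8 and 23 other cells, against 11 and 50 cycling cells. Such counts rise with depth. Scaled to 1000 UMIs of the cell, the median of S UMIs in cycling cells was 6.46 in YFP− and 5.44 in YFP+. It was reached by 4 other YFP− and 20 other YFP+ cells.

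**Figure D4:**
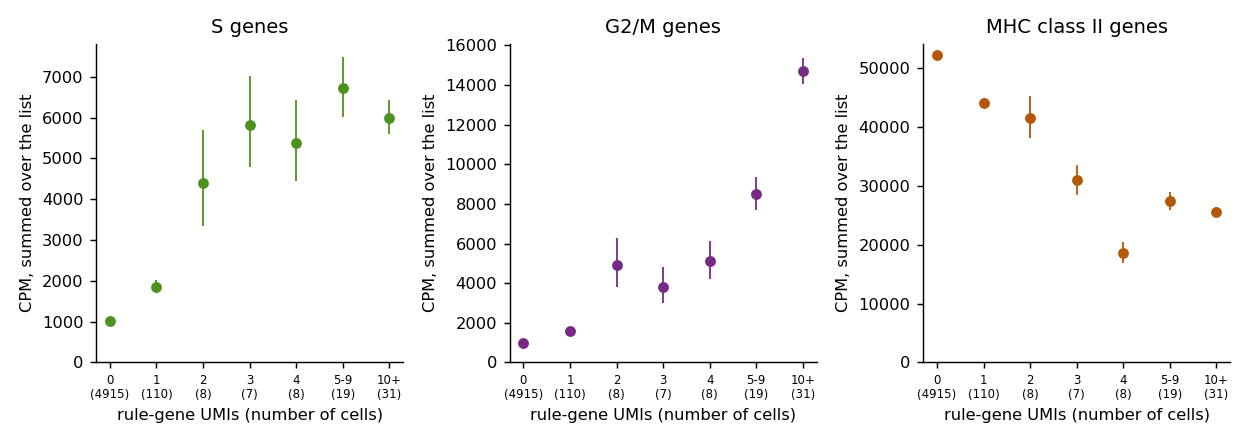
Summed levels in CPM of S genes, G2/M genes and MHC class II genes by the number of rule-gene UMIs in a cell (both libraries together, number of cells in brackets), with 95% counting intervals. G2/M genes stand at 14691 CPM at 10 or more UMIs, and MHC class II genes go from 52097 CPM at 0 to 25466 CPM.

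Among 8 tested inhibitors of the cycle, 3 were higher and 1 was lower, beside 8.28 and 1.32% of all genes. *Cdkn1a*, which encodes p21, was at 258 and 282 CPM against 47.7 and 72.3 CPM in other cells. *Cdkn2c* and *Cdkn2d*, inhibitors of CDK4 and CDK6, were at 317 and 265 CPM against 31.3 and 35.3 CPM, and at 119 and 109 CPM against 15.6 and 18.0 CPM. *Btg2*, an antiproliferative gene and immediate early gene, was at 139 and 150 CPM against 322 and 319 CPM. Its relative *Btg1* was called neither way, at 377 and 316 CPM against 283 and 300 CPM.

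Genes for growth and protein folding differed little beside those of the cycle itself. The list of 30 stood at 10682 and 11339 CPM against 6411 and 6823 CPM, a log2 ratio of 0.74 and 0.73, and 3 of 25 tested genes were higher, the nuclear transport genes *Ran* and *Ranbp1* and the prolyl isomerase *Ppia*, beside 8.28% of all genes. *Ppia* was at 5073 and 4608 CPM against 2295 CPM in the other cells of either library, and at like depth its log2 ratio was 0.61 and 0.74, under the 2-fold rule. Against other cells of like depth the list's log2 ratio was −0.00 in YFP− and 0.45 in YFP+, and 0.44 and 0.43 among cells under 6000 UMIs. Ribosomal protein genes took 17.9 and 19.1% of UMIs in cycling cells and 19.1 and 20.1% in other cells, with none of 76 called either way. Proteasome genes had a log2 ratio of 0.22 (−0.01 to 0.44) in YFP− and 0.37 (0.26 to 0.48) in YFP+, and none of 28 tested was called.

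The next question was whether cycling cells kept the profile of resident nerve macrophages. None of 22 tested macrophage identity genes was called higher or lower, beside 8.28 and 1.32% of all genes. As a sum, the list took a smaller part of the RNA of cycling cells, at 47304 CPM (45425 to 49240) in YFP− and 39760 CPM (38828 to 40708) in YFP+, against 67318 and 61983 CPM in other cells. Cycling cells held 199 and 130 UMIs of the list per cell, against 154 and 102 UMIs per other cell and 305 and 187 UMIs per other cell of like depth. *Apoe*, a lipid carrier and the most abundant gene of the list, was at 16884 and 10189 CPM against 27620.2 and 21698 CPM. *Lyz2*, the lysozyme of macrophages, had log2 ratios of −0.67 and −0.79. *C1qa*, *C1qb* and *C1qc* were nearer to other cells, with log2 ratios between −0.36 and −0.19. *Trem2*, a lipid receptor of microglia and other tissue macrophages, was at 337 and 293 CPM against 316 and 354 CPM, and *Cx3cr1*, the fractalkine receptor, at 377 and 247 CPM against 271 and 340 CPM. In *Trem2* both intervals of the ratio held 0, and in *Cx3cr1* that of YFP− (−0.26 to 1.13). Among cells under 6000 UMIs compared at like depth, the log2 ratio of the list was −0.09 in YFP− and −0.52 in YFP+, with −0.66 and −0.57 when cells of all depths were included. That comparison leaves out 4 cycling and 3 other cells in YFP−, and 3 of each in YFP+.

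**Figure D5:**
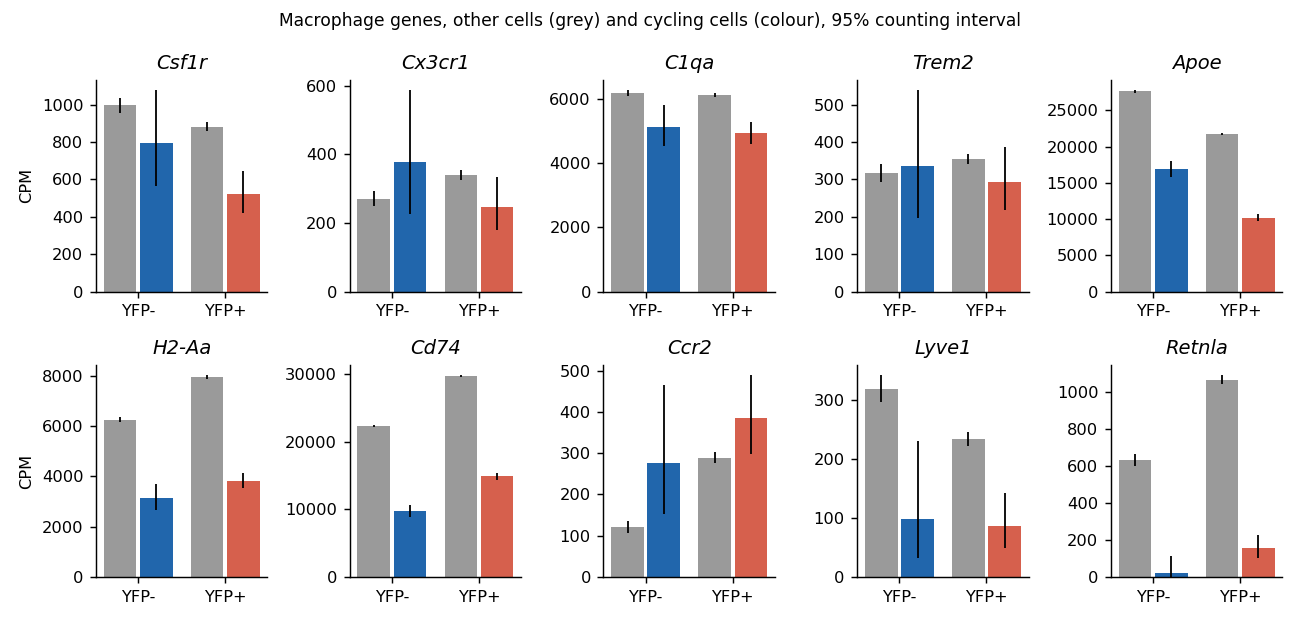
Levels in CPM of 10 macrophage genes in other cells (grey) and cycling cells (blue for YFP−, red for YFP+) of each library, with 95% counting intervals. *C1qa*, *Apoe*, *H2-Aa*, *Cd74*, *Lyve1* and *Retnla* are lower, with separate intervals, in the cycling cells of both libraries. *Trem2* overlaps between cycling and other cells.

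MHC class II genes, which serve to present antigen to T cells, took a smaller share of the RNA in cycling cells. The 7 genes summed to 20372 CPM (19146 to 21657) in YFP− and 27201 CPM (26431 to 27987) in YFP+ cycling cells, against 42276 and 55271 CPM in other cells, a log2 ratio of −1.05 (−1.14 to −0.96) and −1.02 (−1.06 to −0.98). Across cells the share of UMIs on these genes ranged from 0.469 to 6.22% with a median of 1.80% in YFP− and from 0.110 to 12.7% with a median of 1.94% in YFP+ cycling cells. The medians of other cells were 3.99 and 5.02%, and 10 of 12 and 45 of 53 cycling cells fell below them, so that single cells overlapped widely. Of 6 genes tested, 1 was lower by the 2-fold rule, beside 1.32% of all genes. Another 4 had log2 ratios between −1.19 and −0.78 in both libraries. The lower gene was *H2-Ab1*, a class II beta chain, at 3250 and 4269 CPM against 6640 and 8703 CPM. At like depth its log2 ratio was −0.75 and −1.03, so that it was not called there. *Cd74*, the invariant chain, was at 9770 and 14860 CPM against 22354 and 29715 CPM, and *H2-Aa* at 3151 and 3814 CPM against 6255 and 7961 CPM. The peptide-loading gene *H2-DMb1* stood apart, with a log2 ratio of −0.13 (−0.82 to 0.49) in YFP− and −1.16 (−1.62 to −0.73) in YFP+. Cycling cells held 85.7 and 89.2 class II UMIs per cell, beside 96.9 and 90.8 in other cells and 134 and 173 in other cells of like depth. The log2 ratio at like depth was −0.68 in YFP− and −1.01 in YFP+, and −0.98 and −0.92 among cells under 6000 UMIs. Free RNA held these genes at 38904 and 45329 CPM, between the levels of cycling and other cells in both libraries.

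Genes of the perivascular resident subset were also lower in part. *Retnla*, a secreted product of alternatively activated macrophages, was at 19.8 CPM from 1 UMI in YFP− and at 155 CPM (102 to 226) in YFP+ cycling cells, against 631 and 1066 CPM in other cells. Its log2 ratio was −4.92 (−8.72 to −2.50) and −2.77 (−3.37 to −2.23). Of its 27 UMIs in YFP+ cycling cells 15 were in 1 cell, with UMIs in 10 of 53. *Lyve1*, a hyaluronan receptor of perivascular macrophages, was at 99.1 CPM (32.2 to 231) and 86.3 CPM (48.3 to 142) against 319 and 234 CPM. With the lectin *Clec10a*, they were the 3 lower genes of 11 tested, and none was higher, beside 1.32 and 8.28% of all genes. The most abundant gene of the list, the chemokine *Pf4*, was at 5113 and 3757 CPM against 4668 and 3981 CPM. *Selenop* and *Cd163* were lower by less than 2-fold, with log2 ratios of −0.85 and −0.86 and of −0.83 and −0.45, and at like depth those of *Cd163* were −0.12 and −0.14. The log2 ratio of the whole list was −0.58 and −0.60, −0.10 and −0.46 at like depth, and −0.24 and −0.35 among cells under 6000 UMIs. *F13a1*, a clotting factor subunit, had −1.22 in YFP− and −0.39 in YFP+.

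Genes shared with monocyte-derived cells were higher in part. Of 10 tested 5 were higher, *S100a4*, *S100a10*, *Lgals3*, *Vim* and *Anxa2*, which serve the cytoskeleton, calcium binding and the membrane. *Vim*, an intermediate filament, was at 1130 and 1041 CPM against 221 and 283 CPM, and *S100a10* at 852 and 725 CPM against 245 and 316 CPM. *Ly6c2*, *Plac8*, *Chil3*, *Vcan* and *Fn1* had no UMI in cycling cells, but over all 5098 cells they had only 1, 0, 0, 1 and 34 UMIs, so that these zeros set cycling cells apart from no others. *Ccr2*, the chemokine receptor through which monocytes leave the marrow, was at 277 CPM (152 to 466) in YFP− and 385 CPM (299 to 490) in YFP+, against 121 and 289 CPM in other cells. In YFP− its 14 UMIs sat in 3 of 12 cells, with 7 in one and 5 in another, and in YFP+ its 67 UMIs sat in 27 of 53 cells. At like depth the log2 ratio of *Vim* was 0.66 and 1.26, so that it was not called there. That of *S100a10* was 2.08 and 1.03, and that of *Ccr2* 1.12 and 0.12.

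Immediate early genes, which respond within minutes to stimulation and to tissue dissociation, were lower in sum. The list of 17 stood at 5271 and 5788 CPM against 9298 and 10090 CPM. Of 15 tested genes 4 were lower, *Ier2*, *Zfp36*, *Klf2* and *Hspa1a*, and none was higher, beside 1.32 and 8.28% of all genes. The log2 ratio of the list was −1.12 and −0.94 at like depth, but −0.28 and −1.25 among cells under 6000 UMIs. By its share of UMIs, 7 of 12 YFP− and 43 of 53 YFP+ cycling cells lay below the median of other cells. *Fos* was at 1427 and 1202 CPM against 1668 and 1787 CPM and *Jun* at 753 and 604 CPM against 1145 and 1220 CPM. Of 4 tested interferon response genes none was called, too few to read against the 8.28% higher and 1.32% lower of all genes. *Ly6e* was at 595 and 247 CPM against 166 and 139 CPM and *Ifitm3* at 396 and 748 CPM against 1075 and 1140 CPM. At like depth 2-fold was passed by *Ly6e*, with log2 ratios of 2.91 and 1.12, and by *Jun*, with −1.31 and −1.02.

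Of 9 tested cytokine genes 3 were higher, *Cxcl2*, *Ccl4* and *Tnf*, and 1 was lower, *Ccl6*, beside 8.28 and 1.32% of all genes. The UMIs of *Cxcl2* and *Tnf* came from few cells, the 7 and 13 of *Tnf* from 2 and 5. Of 48 *Cxcl2* UMIs in YFP− cycling cells 47 were in 1 cell, and of 169 in YFP+ 125 were in 1 cell, with UMIs in 12 of 53. The 20 and 121 UMIs of *Ccl4* sat in 3 and 18 cells. Neither call held at like depth, where the log2 ratio of *Cxcl2* was −0.17 in YFP− and 0.69 in YFP+ and that of *Ccl4* −1.08 and 0.66. The log2 ratio of the cytokine list was −0.76 and −0.23 at like depth and 0.71 and −0.11 among cells under 6000 UMIs, so that its YFP− sign turned when the deepest cells were left out. The chemokine *Ccl6* was at 159 and 368 CPM against 1211 and 1119 CPM, and its UMIs sat in 5 of 12 and 30 of 53 cycling cells.

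The growth factors and receptors that could feed division were mostly sparse. Of 6 tested, *Igf1*, a growth factor that macrophages secrete, was lower and none was higher, beside 1.32 and 8.28% of all genes. In YFP− *Igf1* rested on 2 UMIs, and its log2 ratio of −1.78 had an interval (−4.59 to 0.06) that held 0. *Csf1* and *Il34*, the 2 ligands of CSF1R, had no UMI in cycling cells, and 9 and 10 UMIs over all cells. *Csf2ra*, the GM-CSF receptor alpha chain, was at 357 and 322 CPM against 283 and 295 CPM. *Tgfb1* stood at 357 CPM in YFP− cells and at 138 CPM in YFP+ cells against 174 and 143 CPM, a log2 ratio of 1.03 (0.26 to 1.70) and −0.05 (−0.70 to 0.53).

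Outside all lists 125 genes were higher and 23 lower. Of the 12 with the largest ratios over both libraries, 4 were histone genes, *Hist1h2br*, *Hist1h2bb*, *Hist1h2bm* and *Hist1h2bg*, at 59.5 to 139 CPM in YFP− and 109 to 132 CPM in YFP+ cycling cells. *Neil3*, a DNA glycosylase active at replication forks, was at 119 and 190 CPM, with 0 UMIs in the other YFP− cells and 0.304 CPM in the other YFP+ cells. *Lockd*, a long noncoding RNA (chr6:134929092-134956798) beside the inhibitor gene *Cdkn1b*, was at 277 and 132 CPM against 0.845 and 0.761 CPM. *Shcbp1*, a midbody protein, was at 119 and 97.8 CPM against 2.96 and 1.98 CPM, and *Knstrn*, a kinetochore protein, at 198 and 69.0 CPM against 3.80 and 6.24 CPM. *Atad2*, a chromatin ATPase, was at 198 and 311 CPM against 17.7 and 18.7 CPM, and the nuclear envelope gene *Nrm* at 317 and 236 CPM against 22.8 and 26.3 CPM. *Slfn9* and the membrane gene *Plp2* completed the 12, with log2 ratios of 3.94 and 4.71 and of 4.26 and 3.64.

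The 12 smallest ratios outside the lists rested on few UMIs in cycling cells. *Gpx3*, a secreted glutathione peroxidase, had 1 and 3 UMIs, against 181 and 79.7 CPM in other cells, and log2 ratios of −3.13 (−6.92 to −0.70) and −2.14 (−4.15 to −0.64). *Ninj1*, which ruptures the membrane of dying cells, was at 39.6 and 63.3 CPM against 350 and 260.3 CPM, with 2 UMIs in YFP− cycling cells. *Pla2g2d*, a secreted phospholipase, was at 99.1 and 34.5 CPM against 310 and 193 CPM, and *Hmox1*, the heme-degrading enzyme, at 59.5 and 69.0 CPM against 185 and 173 CPM. *Cebpa*, a myeloid transcription factor that also restrains division, was at 59.5 and 40.3 CPM against 132 and 110 CPM. The others were *Lyz1*, *Slc11a1*, *Lmo2*, *Cyp27a1*, *Aldoa*, *Marcksl1* and *Mtss1*, with 2 to 4 UMIs each in YFP− and 5 to 23 in YFP+. In *Slc11a1*, *Cyp27a1* and *Cebpa* the YFP− interval of the ratio held 0. At like depth these 3 and *Pla2g2d* were not called, with YFP− log2 ratios of −0.46, 0.21, −0.82 and −0.65. Nor was *Gpx3*, whose UMI in YFP− counts as the floor of 59.5 CPM, against 104 CPM in other cells of like depth.

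Last, cycling cells of both origins were set side by side, as a comparison of 2 libraries and not of 2 origins. Of the 18 lists, 7 had an interval of this ratio that did not hold 0, with log2 values between −0.62 and 0.48. The log2 of YFP+ over YFP− was −0.14 (−0.38 to 0.10) for mitotic kinases and cyclins, −0.11 (−0.32 to 0.11) for DNA replication and −0.20 (−0.34 to −0.06) for spindle and cytokinesis genes, where other cells had −0.02, −0.02 and 0.20. MHC class II genes were higher in the YFP+ library by 0.42 (0.32 to 0.52) in cycling cells and by 0.39 in other cells. *Ccr2* differed by 0.47 (−0.37 to 1.41) in cycling cells and by 1.25 in other cells. With each cell given the same weight, the value of cycling cells was 1.01 (0.09 to 2.07), an interval without 0. Macrophage identity genes were at −0.25 (−0.32 to −0.18) in cycling and −0.12 in other cells. The YFP− side of each of these values rests on 12 cells.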

How the data were processed

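The authors aligned and counted the reads with Cell Ranger against GRCm38, version 3.0.2 in the submitters' processing notes, which also name Seurat 2.2.0, while the methods of the study name an earlier version, and deposited 1 matrix of UMI counts per library with all barcodes. The counts were not normalized, and the sources used here do not speak of free RNA or doublets having been removed from them. The libraries held 3653688 (YFP−) and 9365598 (YFP+) UMIs, of which 66.2% and 72.0% lay in cells, defined here as barcodes with at least 500 UMIs and 200 genes. The study kept cells by mapped reads, which UMI counts do not hold, so that filter was not applied. The median cell held 2233 and 1484 UMIs.

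UMIs were summed over cycling and over other cells of each library and given as CPM with exact Poisson intervals, and shares of cells with Clopper-Pearson intervals. Ratios are log2(CPM + 1), with intervals conditional on the summed counts. A gene was tested at a mean pooled CPM of at least 50, and called at 2-fold in the same direction in both libraries. A higher call needed 3 UMIs in cycling cells, and a lower call took cycling cells as holding at least 3. Rule genes were left out. With 1 library per group no p-value was computed. Like-depth values weight other cells to the UMIs of cycling cells in 6 bins. Doublets were kept. Cell cycle lists may share reads with pseudogenes.

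The text names the 8 rule genes and the 12 genes with the largest and the 12 with the smallest ratio outside the lists. It also names 7 fixed genes (*Ccr2*, *Lyve1*, *Retnla*, *Csf1r*, *Cx3cr1*, *Trem2* and *Apoe*). From the lists it names genes among the 5 with the highest level in cycling cells, and in several lists not all of these 5. Others named beside a list's count were chosen after their values were seen. Members and lists were chosen with earlier results of these data known. Alternatives covered the rule, depth, weighting, scaling, pseudocount, free RNA, doublets, filter and fold. Leaving out the 5 cells of each library with the highest sums, restricting to cells under 6000 UMIs and dropping the floor of 3 UMIs were added after seeing the data. The steps were tested on simulated counts and run in Python 3.11.15 with numpy 2.4.6, scipy 1.17.1, pandas 2.3.3 and matplotlib 3.10.9. Gene positions are from GENCODE and promoters from RefSeq on GRCm38.p6.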

Additional observations from a re-analysis of the deposited data

Results flagged for a closer look

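Barcodes of 10 to 100 UMIs, taken above as free RNA, were counted neither as cycling nor as other cells. They held the 8 rule genes at 98.9 CPM (79.6 to 122) in YFP− and 95.9 CPM (82.9 to 110) in YFP+. The level over all cells of the same library was 99.3 and 108 CPM, and that over other cells 16.1 and 13.4 CPM. What these UMIs came from was not tested.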

How the results depend on the processing

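No paired analysis was possible because each group is 1 library. Of 1340 values of named genes and lists under an alternative, pooled over both libraries, 1102 moved by less than their counting interval and 238 by more. The sign changed in 28 of them, in 13 genes that were not called, *Ccnd1*, *S100a6*, *Pf4* and *Trem2* among them, and in the list of inflammatory cytokines, and in no called gene. In YFP− alone, the ratios of *Cxcl2*, *Ccl4*, *Impdh2* and *Cyp27a1*, which were called, changed sign at like depth. The share of YFP+ cells that were cycling was 1.74% among cells of at least 1000 UMIs. The number of higher genes was 140 at like depth, 386 with a mean CPM of at least 20, 394 with no filter but 10 UMIs, 425 at 1.5-fold, 139 at 3-fold, 74 at like depth under 6000 UMIs and 131 without the 5 cycling cells of each library with the highest sums. The number of lower genes was 14 without cells above the 99th percentile of UMIs, 143 at 1.5-fold, 7 at 3-fold, 14 at like depth under 6000 UMIs and 9 without those 5 cells. Higher genes were 86.2% of calls, and under the alternatives from 74.8% (at 1.5-fold) to 95.2% (at 3-fold). The pooled log2 ratio of DNA replication (2.58) was 2.07 at like depth, 2.26 at like depth under 6000 UMIs, 2.46 with the median of all genes at 0 and 2.73 with free RNA subtracted. That of mitotic kinases and cyclins (4.22) was 4.03, 4.07, and 4.51 with free RNA subtracted, and 4.46 for cells with at least 5 rule UMIs against those with 0. That of MHC class II (−1.01) was −0.95, −0.93, −1.14 with the median at 0 and −1.16 with free RNA subtracted. The share of cells with more S UMIs was 12.3% with tubulins and stathmin in the G2/M set and 14.04% under the rule without *Pclaf*. The cause of these shifts was not tested. With 12 YFP− cycling cells, counts for single genes limit what can be seen there.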
